A study of Mus musculus with 6 samples.

Results

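Immediate early genes were examined in kidney RNA of 6 male mice aged 10 weeks, each measured on 1 Affymetrix expression array. The members were 34 genes named as a module, found through the platform annotation wherever a probe set carried that gene symbol alone, and each was represented by its probe set with the highest mean over the 6 arrays. All 34 were measured, among 18193 genes with such a probe set. Of the animals, 3 were heterozygous for the intracellular domain of megalin and expressed it in soluble form (ICD group), and 3 were wild type littermates. Megalin, the product of Lrp2, takes up filtered proteins in the proximal tubule, and the series asked whether its released tail alters the function of that segment. The labels name neither the promoter that drives the domain, nor the strain, nor the way in which the kidneys were collected.

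Immediate early genes are transcribed within minutes of a stimulus, without new protein synthesis, because the factors that switch them on are already present and need only be phosphorylated. Serum response factor with its ETS partners, acting at CArG boxes, and CREB, acting at cyclic AMP response elements, are the best known of these. Many of the products are transcription factors (AP-1, EGR, NR4A and KLF proteins), and others are brakes that end the signal, such as phosphatases of MAP kinases and proteins that destroy short-lived mRNA. In kidney they are known to respond to growth factors, angiotensin, ischaemia and reperfusion, and they are also known to respond to anaesthesia and to the minutes between death and freezing.

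Values are deposited log2 expression values, on which 1 unit is a doubling. The arrays resembled each other closely (Pearson correlation over probe sets 0.9949 to 0.9966), and the 8 proximal tubule markers had means over the 6 arrays of 10.70 to 14.20, so these defining kidney transcripts were bright. A bright Lrp2 probe set, 1427133_s_at, read 13.01 and 12.97 on wild type 1 and 2 but 12.13 on the third wild type array, below the ICD arrays (12.25, 12.37 and 12.26). The other bright one, 1452320_at, read 12.77 to 12.93 on all 6. The labels do not say what the introduced allele does to Lrp2 transcripts, so the third is written below as the array labelled wild type 3. Its proximal tubule score was -0.52, against -0.039 to 0.16 on the other arrays. That score came mainly from Gatm (10.93, against 12.01 to 12.51), Slc5a2 (10.40, against 11.29 to 11.96) and Slc6a19 (9.43, against 10.63 to 11.15). Miox (13.88, against 14.15 to 14.32) and Slc34a1 (13.92, against 14.14 to 14.22) were lowest there by less. Slc22a6 (13.06, against 13.06 to 13.17) and Cubn (12.50, against 12.51 to 12.64) were close to the other arrays.

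The kidney of ICD 2 held the highest value of the 6 for 11 of the 34 members (32.4%), whereas that array was the highest for 20.4% of all genes. The other arrays were highest for 8 members (ICD 3 and the array labelled wild type 3), 4 (wild type 1), 2 (wild type 2) and 1 (ICD 1). On ICD 2, 5 members (14.7%) lay more than 0.3 above every other array, against 0.39% of all genes and 0.43% of genes at or above the median level. These were Fos, Jun, Egr1, Zfp36 and Gadd45g. At a gap of 0.2 they were again 5, against 1.31% of all genes, and at 0.5 there were 2, Egr1 and Gadd45g, against 0.093%. On wild type 1, 2 members (5.88%), Klf10 and Junb, lay more than 0.3 above every other array, against 0.275% of all genes, and on the other 4 arrays there were 0. These gap sizes were chosen after the values were seen. The array labelled wild type 3 was the lowest of the 6 for 10 members (29.4%), against 17.1% of all genes. The lowest values of the other members lay on wild type 2 (7), ICD 3 (6), ICD 1 (5), wild type 1 (4) and ICD 2 (2).

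Gadd45g, a stress-induced protein that feeds into p38 and JNK signalling, read 8.97, 10.42 and 8.94 in ICD 1 to 3 and 9.21, 8.99 and 9.65 in wild type 1, 2 and the array labelled wild type 3. ICD 2 stood 1.27 above the mean of the other 5, and the groups overlapped. Egr1, a zinc finger factor and a standard marker of recent MAP kinase signalling, read 7.46, 8.32 and 7.62 in the ICD kidneys and 7.59, 7.27 and 7.50 in the wild type kidneys in the same order. Again ICD 2 alone was high, by 0.83 over the mean of the others. Zfp36 encodes tristetraprolin, which binds AU-rich mRNA and speeds its decay. It read 9.17, 10.06 and 9.30 in ICD and 9.61, 9.43 and 9.43 in wild type kidneys. Apart from ICD 2, the ICD values of Zfp36 lay below all 3 wild type values.

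Fos, the partner of Jun in the dimeric factor AP-1, was dim. It read 5.63, 6.31 and 5.84 in ICD and 5.48, 5.89 and 5.68 in wild type kidneys. Jun itself read 8.30, 8.70 and 8.39 in ICD and 8.14, 8.34 and 8.10 in wild type kidneys. For both genes ICD 2 was the highest array, and wild type 2 lay within the range of the ICD values. For Fos the array labelled wild type 3 did so too. Ier3, a stress-induced membrane protein that modulates cell survival, read 10.19, 10.64 and 10.15 in ICD and 10.27, 10.44 and 10.56 in wild type kidneys, so ICD 2 was the highest by a smaller gap over the array labelled wild type 3. The brakes did not follow as a group. Zfp36 stood apart on ICD 2, as given above. Dusp1 read 11.13 there, 0.31 above the mean of the other 5 arrays, beside 11.13 on wild type 1. Dusp5, Dusp6, Rgs2 and Socs3 on ICD 2 lay within the range of the other arrays.

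A score was taken as the mean, over the 34 members, of the log2 value minus that gene's mean of the 6 arrays. It was 0.12 on ICD 2, and 0.014 and -0.036 on ICD 3 and ICD 1. Wild type 1 scored 0.0099, wild type 2 -0.066 and the array labelled wild type 3 -0.045. The medians of the deviations were nearer to each other, at 0.035 on both ICD 2 and ICD 3, so the score of ICD 2 came from a few members. The 3' minus 5' difference of the Gapdh control, a measure of RNA integrity, was 0.12 on ICD 2 and 0.13 to 0.18 on the other arrays. For the actin control it was 0.93, within 0.82 to 1.00. Myeloid markers scored lowest on ICD 2 (-0.12, against -0.011 to 0.11 elsewhere, with 4 of 8 at or above the median level), and lymphoid markers too (-0.076, against -0.047 to 0.089, with 2 of 7 at or above it). Urothelial markers were also lowest there (-0.12, against -0.040 to 0.072, with 6 of 6 at or above it), and adipose tissue markers highest (0.40, against -0.61 to 0.35, with 3 of 3 at or above it). Distal tubule markers (-0.24, against -0.23 to 0.26, with 4 of 4 at or above it) and adrenal markers (-0.093, against -0.032 to 0.073, with 2 of 5) were lowest on ICD 2 as well. Not every marker followed its list: Csf1r (myeloid), Cd3e (lymphoid) and Cyp11b1 (adrenal) were highest on ICD 2, at 11.59, 7.41 and 5.01. Among distal tubule markers, Pvalb and Trpm6 were lowest there (9.30 and 8.93), and Slc12a3 and Calb1 were not (12.42 and 13.18). The part of the cells of these lists in the values of ICD 2 was not tested. Fewer cells of a type and less RNA per cell cannot be told apart in such bulk samples.

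**Figure D1:**
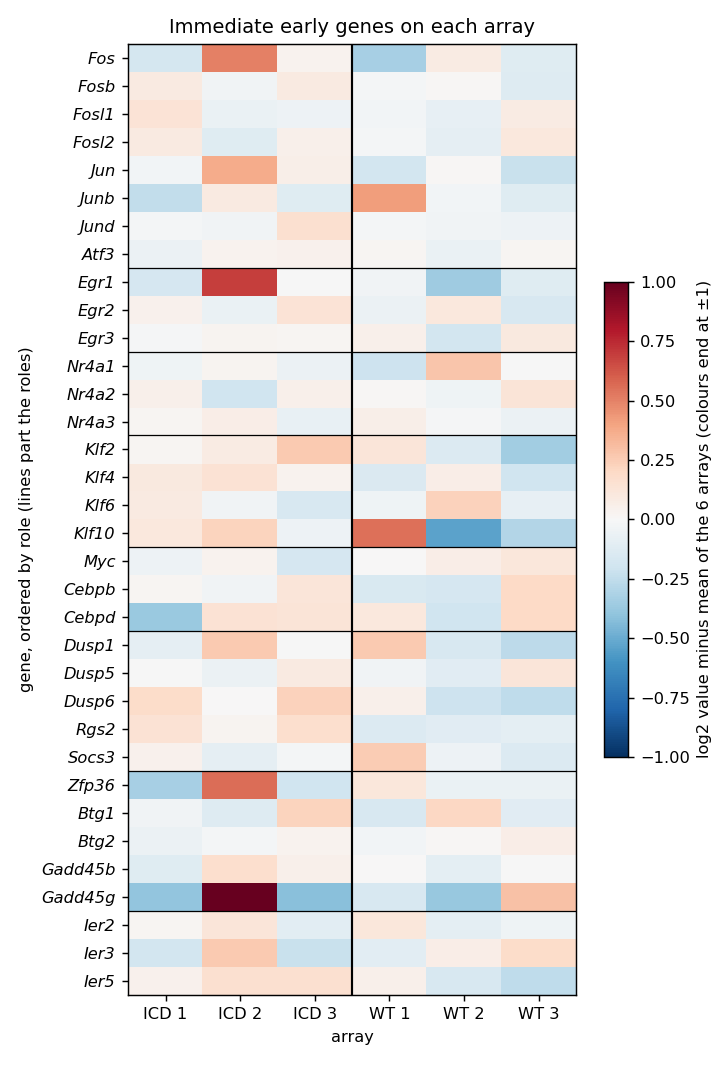
Each row is a member, grouped by role, and each column an array; colour is the deviation (log2) from that gene's mean of the 6 arrays. Gadd45g, Egr1, Zfp36, Fos and Jun are darkest on ICD 2, and Klf10 and Junb on WT 1.

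The DNA ahead of the start site is shown for members that read highest on ICD 2 (Fos, Zfp36 and Gadd45g), for the member whose genotypes did not overlap (Rgs2) and for Dusp1, which holds a full cyclic AMP response element. Each is 250 bases before the start, 5′ to 3′ in the direction of the gene, from RefSeq on GRCm38.p6. The promoters of 27 of the 34 members were searched, and those of Egr1, Egr3, Myc, Fosl1, Klf10, Cebpd and Ier2 were not searched here. Capitals mark the motifs searched on both strands: the CArG box of serum response factor, TGACGTCA of CREB and TGACTCA of AP-1. The shorter TGACG, which lies within TGACGTCA, and the TATA motif TATAAA were added after the sequences were seen. Fos lies at chr12:85473640-85473889 on the plus strand, Zfp36 at chr7:28379229-28379478 on the minus strand, Gadd45g at chr13:51846425-51846674 on the plus strand, Rgs2 at chr1:144004150-144004399 on the minus strand and Dusp1 at chr17:26508473-26508722 on the minus strand.
Fos: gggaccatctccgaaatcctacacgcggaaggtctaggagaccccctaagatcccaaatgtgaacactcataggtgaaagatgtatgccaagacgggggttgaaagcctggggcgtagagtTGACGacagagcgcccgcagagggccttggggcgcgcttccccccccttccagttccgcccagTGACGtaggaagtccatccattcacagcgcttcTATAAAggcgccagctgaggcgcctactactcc
Zfp36: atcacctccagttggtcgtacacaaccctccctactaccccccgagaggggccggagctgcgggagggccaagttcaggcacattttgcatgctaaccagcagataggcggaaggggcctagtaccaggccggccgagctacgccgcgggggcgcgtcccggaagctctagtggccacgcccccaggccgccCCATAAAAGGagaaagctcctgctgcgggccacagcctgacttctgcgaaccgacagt
Gadd45g: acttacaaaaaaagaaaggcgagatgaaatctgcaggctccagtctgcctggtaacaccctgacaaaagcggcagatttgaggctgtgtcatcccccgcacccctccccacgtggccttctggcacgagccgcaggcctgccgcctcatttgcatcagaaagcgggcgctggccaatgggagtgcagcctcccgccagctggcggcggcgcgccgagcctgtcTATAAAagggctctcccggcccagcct
Rgs2: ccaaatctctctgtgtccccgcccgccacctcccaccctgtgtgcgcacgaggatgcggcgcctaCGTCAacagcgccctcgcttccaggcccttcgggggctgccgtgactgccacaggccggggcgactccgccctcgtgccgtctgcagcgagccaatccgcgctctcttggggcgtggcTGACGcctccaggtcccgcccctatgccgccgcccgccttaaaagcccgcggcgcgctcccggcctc
Dusp1: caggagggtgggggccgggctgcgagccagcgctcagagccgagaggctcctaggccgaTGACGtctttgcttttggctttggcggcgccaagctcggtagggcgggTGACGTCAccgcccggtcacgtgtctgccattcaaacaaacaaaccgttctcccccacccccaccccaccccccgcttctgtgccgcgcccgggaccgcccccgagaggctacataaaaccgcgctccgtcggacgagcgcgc

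Fos held TGACG at 62 to 66 and at 125 to 129 bases before its start and TATAAA at 28 to 33. Zfp36 held a CArG box at 49 to 58 bases before its start, and Gadd45g held the TATA motif at 22 to 27. Rgs2 held TGACG at 63 to 67 bases and, on the other strand, at 181 to 185. Dusp1 held TGACGTCA at 136 to 143 bases and a further TGACG at 187 to 191. Among the 27 members, TGACG was found in 16 (59.3%), against 19.8% of 27025 genes, and a CArG box in 3 (11.1%, Dusp5, Egr2 and Zfp36), against 1.62%. TGACGTCA was found in 2 (7.41%, Btg2 and Dusp1), against 1.77%, TATAAA in 5 (18.5%), against 14.3%, and TGACTCA in 0, against 5.16%. The windows of the members were richer in G and C (median 65.2%) than those of all genes (52.4%). These shares describe letters in the window and not sites in use.

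Other members of wide range did not stand apart on ICD 2 alone. Klf10, a KLF repressor induced by TGF-beta, read 8.17, 7.08 and 7.33 in wild type 1, 2 and the array labelled wild type 3, and 7.73, 7.84 and 7.57 in ICD 1 to 3. The wild type values of Klf10 thus enclosed the ICD values. Junb, an AP-1 subunit, read 7.96, 7.51 and 7.42 in wild type kidneys and 7.29, 7.63 and 7.42 in ICD kidneys, with wild type 1 the highest. Dusp1, the nuclear phosphatase that inactivates p38, JNK and ERK, was bright at 10.78, 11.13 and 10.87 in ICD and 11.13, 10.72 and 10.61 in wild type kidneys. ICD 2 and wild type 1 shared its highest level. Cebpd, a factor of the acute phase response, read 7.50, 8.02 and 8.0 in ICD and 7.98, 7.68 and 8.08 in wild type kidneys, with ICD 1 and wild type 2 low. Klf2, an endothelial factor that responds to blood flow, read 8.15, 8.22 and 8.39 in ICD and 8.25, 8.0 and 7.79 in wild type kidneys, lowest on the array labelled wild type 3. The endothelial markers also scored lowest on that array (-0.33, against -0.082 to 0.24 elsewhere, with 8 of 8 at or above the median level). Their part in the Klf2 values was not tested.

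**Figure D2:**
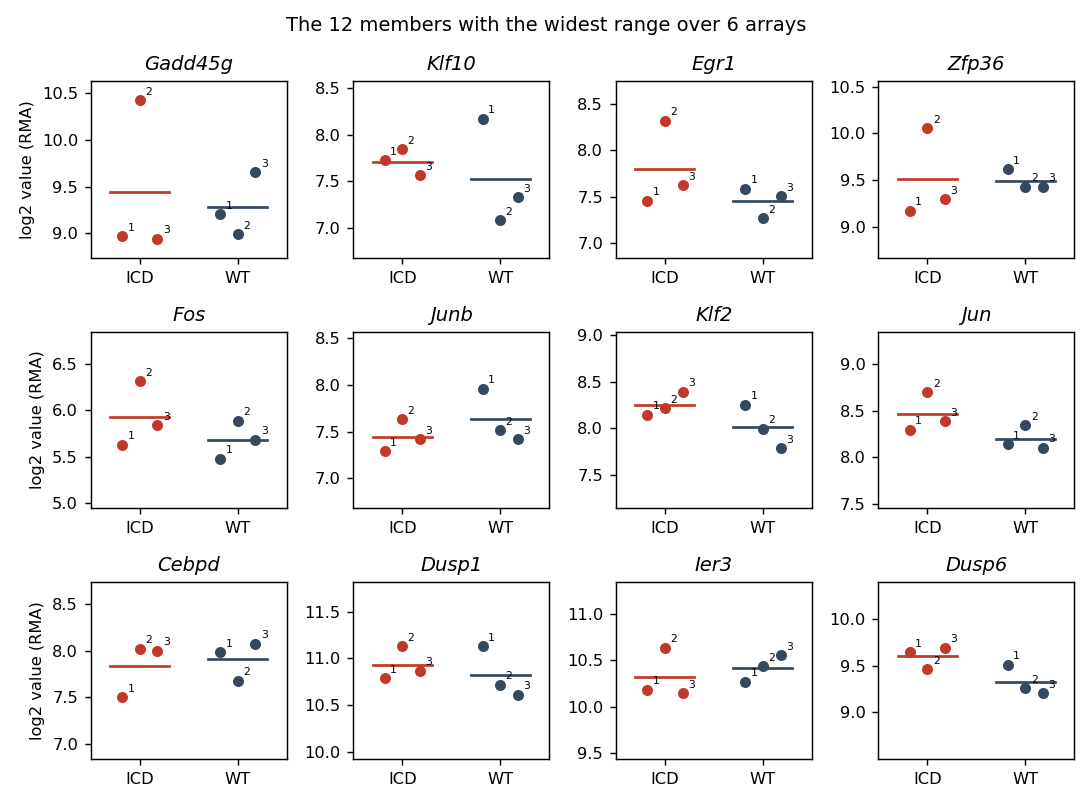
Points are the log2 values of single arrays, numbered by replicate, for the 12 members with the widest range over the 6 arrays, and lines are group means; every panel spans the same height. ICD 2 is the top point for Gadd45g, Egr1, Zfp36, Fos and Jun, and WT 1 for Klf10 and Junb.

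The spread between animals of the same genotype was wide for the module. The SD within genotype, from the residuals of the comparison below, had a median of 0.13 over the 34 members and 0.098 over all 18193 genes. It lay above the median of all genes for 27 members and in the highest 10% of genes (above 0.19) for 10. These were Gadd45g, with an SD of 0.65, Klf10 (0.42), Zfp36 (0.35), Egr1 (0.34), Fos (0.29), Cebpd (0.25), Junb (0.24), Dusp1 (0.23), Ier3 (0.22) and Btg1 (0.19). Measured against genes of similar level, in 20 bins, 10 members again lay above the 90th percentile of their bin. Without ICD 2 the count in the highest 10% was 8, and over the fits without 1 array it was 8 to 12. Without ICD 2 the median was 0.12 over members and 0.092 over all genes.

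At the other end, 13 members ranged over less than 0.3 on the 6 arrays. Atf3, a stress factor of the ATF family, ranged over 0.11 at a mean of 5.82, Btg2, an antiproliferative protein, over 0.12 at 8.85, and Nr4a3, an orphan nuclear receptor, over 0.14 at 8.02. Jund, the AP-1 subunit that resting cells also make, was the brightest member at a mean of 11.45 and ranged over 0.21. Fosb, at a mean of 4.30, was the dimmest, and 8 of the 34 members lay below the median of all probe sets (6.64). RMA compresses the differences of such dim probe sets.

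**Figure D3:**
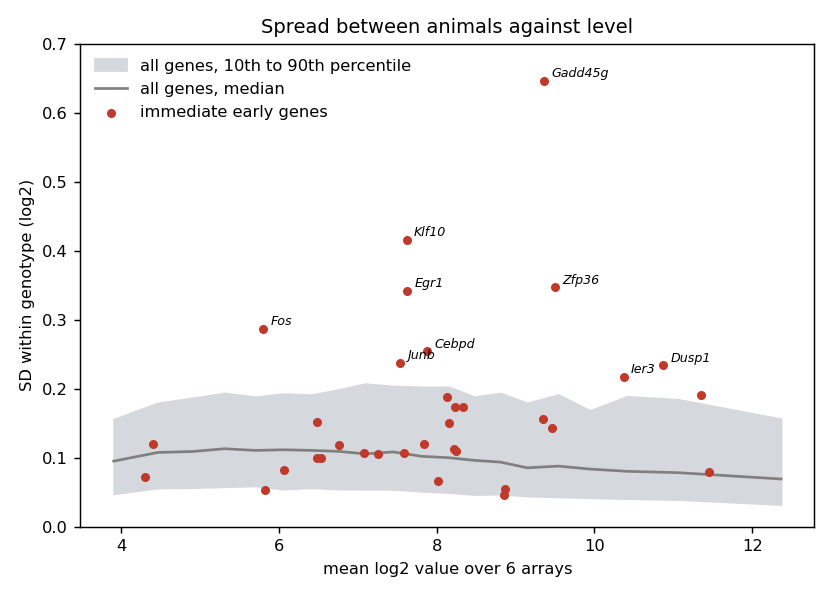
Each red point is a member, with its mean log2 value over 6 arrays across and its SD within genotype upwards; the grey band holds the 10th to 90th percentile of all genes and the grey line their median, in 20 bins of level. Gadd45g, Klf10, Zfp36, Egr1 and Fos lie farthest above the band.

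Between the genotypes, 0 of the 34 members passed the limma test, with adjusted p between 0.718 and 0.998 over 45037 probe sets, of which 0% passed. At an unadjusted p under 0.05 there were 4 members, Rgs2, Dusp6, Ier5 and Jun, all higher in ICD kidneys, where 3.94% of all genes have such a p and 1.74% have it in that direction. The 4 were 11.8% of the members. The groups did not overlap for 1 member, Rgs2 (2.94%), against 9.10% of all genes, of which 3.66% were higher in ICD. A positive difference (log2) means a higher level in ICD kidneys, and n = 3 animals per genotype throughout.

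Rgs2, which shortens signals from Gq-coupled receptors such as the angiotensin receptor, read 9.01, 8.89 and 9.03 in ICD and 8.73, 8.75 and 8.76 in wild type kidneys. Every ICD value lay above every wild type value, with means of 8.98 ± 0.075 (SD) and 8.75 ± 0.018. The difference was 0.23 (95% confidence interval 0.077 to 0.39), at a limma adjusted p of 0.718. The other 3 Rgs2 probe sets differed in the same direction, by 0.24 at 1419247_at, where the groups did not overlap either, 0.29 at 1447830_s_at and 0.14 at 1443250_at, where they did. Without any 1 array the difference at the chosen probe set was 0.21 to 0.28.

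Dusp6, the cytoplasmic phosphatase that ERK signalling induces and that inactivates ERK in turn, read 9.65, 9.46 and 9.69 in ICD and 9.51, 9.26 and 9.21 in wild type kidneys. Only ICD 2 and wild type 1 crossed. The difference was 0.28 (interval 0.044 to 0.51, limma adjusted p = 0.798), and 0.22 without the array labelled wild type 3. Ier5, an immediate early nuclear protein, read 7.88, 7.99 and 7.99 in ICD and 7.89, 7.68 and 7.58 in wild type kidneys. Its groups overlapped through ICD 1 and wild type 1, which were nearly equal. The difference was 0.24 (interval 0.032 to 0.45, limma adjusted p = 0.808), but 0.050 and 0.021 at its other probe sets. Jun differed by 0.26 (interval 0.00038 to 0.53, limma adjusted p = 0.851), by 0.15 without ICD 2 and by 0.12 at its other probe set.

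Podocyte markers parted the genotypes in the same arrays: all 6 measured of 8 listed were higher in ICD kidneys, with scores of 0.14 to 0.27 in ICD and -0.32 to -0.083 in wild type arrays, and all 6 read at or above the median level. Their part in the values of Rgs2, Dusp6, Ier5 and Jun was not tested. Smooth muscle and stromal markers, a list that does not hold Rgs2, were higher in ICD kidneys in 7 of 7. Their scores overlapped between the groups, at -0.083 to 0.15 and -0.26 to 0.15. Of these markers 1 had an unadjusted limma p under 0.05. This was Rgs5, without overlap at 10.09 to 10.21 in ICD and 9.77 to 10.06 in wild type kidneys. Urothelial scores did not overlap (-0.12 to 0.020 in ICD, 0.021 to 0.072 in wild type), with 5 of 6 markers lower in ICD kidneys, and their part was not tested either. Endothelial markers were higher in ICD kidneys in 8 of 8, proximal tubule markers in 7 of 8 and adipose tissue markers in 3 of 3, and principal cell markers were lower in 6 of 7. The scores of these lists overlapped between the groups, at -0.050 to 0.18 in ICD and -0.33 to 0.24 in wild type for endothelium, 0.12 to 0.15 and -0.52 to 0.16 for proximal tubule, -0.17 to 0.40 and -0.61 to 0.079 for adipose tissue, and -0.10 to 0.032 and -0.011 to 0.16 for principal cells. Their part in the members' differences was not tested.

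**Figure D4:**
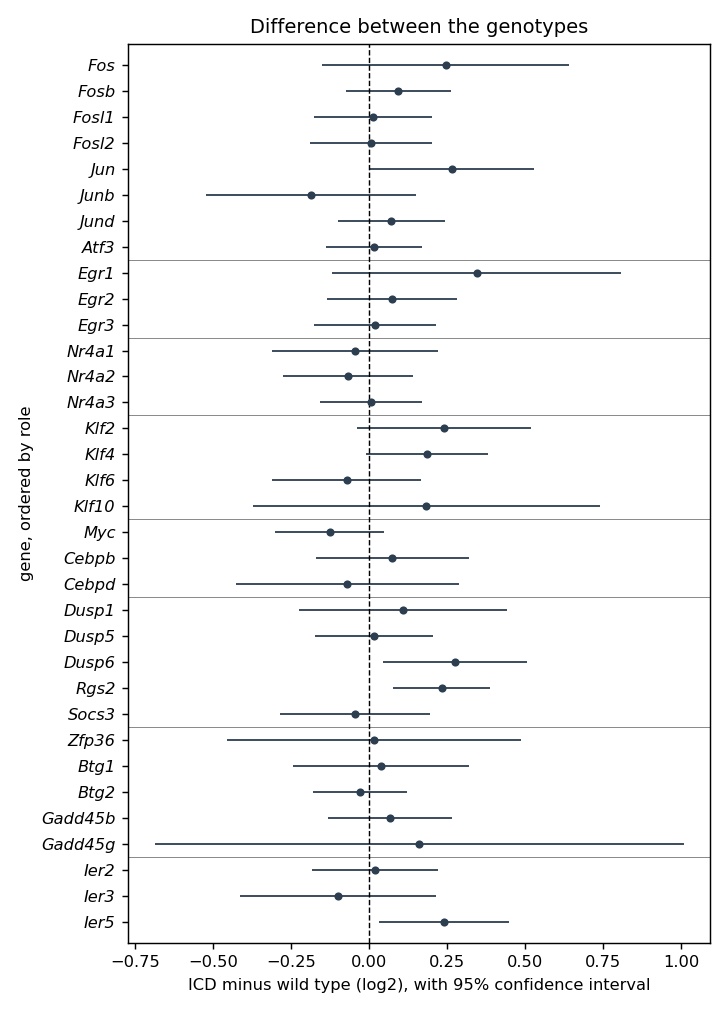
Points are the differences ICD minus wild type (log2) of the 34 members, ordered by role, and bars their 95% confidence intervals from limma. The intervals of Rgs2, Dusp6, Ier5 and Jun lie above 0, and that of Gadd45g is the widest.

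Over all 34 members the median difference was 0.029, beside -0.012 over all genes. Of the members 25 were higher in ICD kidneys, where 43.9% of all genes were. Without 1 array that count was 19 (without wild type 2) to 24 (without wild type 1). The median stayed within 0.013 to 0.073 in fits without 1 array. Between AP-1 and ATF members, 7 of 8 were higher (median 0.045). Fos differed by 0.25 (interval -0.15 to 0.64), and by 0.053 without ICD 2 and 0.39 without ICD 1. Junb, the exception, differed by -0.18 (interval -0.52 to 0.15), and by -0.020 without wild type 1. Fosb, Fosl1, Fosl2, Jund and Atf3 differed by 0.0071 to 0.094.

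All 3 EGR members were higher, and none of them passed the test. Egr1 differed by 0.35 (interval -0.12 to 0.81), by 0.087 without ICD 2 and by 0.52 without ICD 1. Egr2 and Egr3, which activated nerve and immune cells make, differed by 0.075 and 0.019. The orphan receptors of the NR4A family, which are active without a known ligand and follow cyclic AMP signals, differed by -0.067 (Nr4a2), -0.045 (Nr4a1) and 0.0069 (Nr4a3). Nr4a1 read 8.19, 8.27 and 8.18 in ICD and 8.03, 8.51 and 8.24 in wild type kidneys, so its wild type values enclosed the ICD values.

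Among KLF zinc finger factors, Klf2 differed by 0.24 (interval -0.039 to 0.52), and by 0.13 without the array labelled wild type 3. Klf4, an epithelial differentiation factor, differed by 0.19 (interval -0.011 to 0.38), with wild type 2 at 7.15 inside the ICD range of 7.12 to 7.23. Klf6, induced in tubular injury, differed by -0.072, and Klf10 by 0.18 (interval -0.37 to 0.74). The Klf10 difference was 0.51 without wild type 1 and -0.040 without wild type 2. Myc, a growth factor target, differed by -0.12 (interval -0.30 to 0.050), and the C/EBP factors Cebpb and Cebpd by 0.075 and -0.070.

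Among the signalling brakes, Dusp1 differed by 0.11 (interval -0.22 to 0.44), by 0.0031 without the array labelled wild type 3 and by 0.27 without wild type 1. Dusp5, a nuclear phosphatase of ERK, differed by 0.017 and Socs3, an inhibitor of cytokine receptors, by -0.044. Of the genes for mRNA decay and growth arrest, Gadd45g differed by 0.16 (interval -0.69 to 1.01) and Zfp36 by 0.016 (interval -0.45 to 0.49). Without ICD 2 these differences were -0.33 and -0.26. Btg1, Btg2 and Gadd45b differed by 0.039, -0.027 and 0.066. Ier2 differed by 0.020, and Ier3 by -0.099 (interval -0.41 to 0.21), or by -0.25 without ICD 2. The limma adjusted p was above 0.86 for all members but the 4 named first, of which Jun had the highest at 0.851.

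In all, 66 probe sets measured the members, and 18 members had more than 1. For 8 of these, another probe set differed in the opposite direction from the chosen one. Btg2 and Nr4a3 each had a dimmer probe set that parted the groups although the chosen one did not. For Btg2, 1448272_at read 8.18, 8.11 and 8.27 in ICD and 8.38, 8.55 and 8.33 in wild type kidneys. It differed by -0.23, whereas the chosen one differed by -0.027. For Nr4a3, 1438796_at read 6.39 to 6.42 in ICD and 6.11 to 6.38 in wild type kidneys, so the groups parted narrowly. It differed by 0.17 (interval -0.020 to 0.35), whereas the chosen one differed by 0.0069.

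Genes around the module were followed in 4 further lists. The path that signals to the members (MAP kinases, ETS factors, serum response factor and CREB) was measured by 20 genes, of which 10 were higher and 10 lower in ICD kidneys, 0 passed limma's adjusted threshold and 0 had an unadjusted p under 0.05. The second wave of the response was measured by 67 genes, 26 higher and 41 lower, with a median of -0.021 and 0 past the adjusted threshold. At an unadjusted p under 0.05 there were 1 higher and 2 lower, where 1.74% and 2.20% of all genes are. Mcl1, which protects from apoptosis, read 10.93, 11.01 and 10.91 in ICD and 10.74, 10.79 and 10.63 in wild type kidneys. Bcl3, an IκB-like cofactor of NF-κB, read 6.90, 7.23 and 7.10 against 7.59, 7.29 and 7.55, and Ppp1r15a, which restarts translation after stress, 8.39, 8.44 and 8.31 against 8.59, 8.67 and 8.58. Their differences were 0.23, -0.40 and -0.23, with no overlap between the groups.

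The widest ranges of the second wave belonged to Gadd45a, Per2 and Id1. Gadd45a, a sister of Gadd45g, read 8.47, 9.61 and 8.76 in ICD and 8.85, 9.48 and 8.74 in wild type kidneys, high on ICD 2 and on wild type 2. Per2, a clock gene, read lowest on the array labelled wild type 3 (6.99, against 7.31 to 7.93), and Id1, an inhibitor of helix-loop-helix factors, highest on ICD 1 (9.59, against 8.69 to 8.85). The second wave scored 0.0028 on ICD 2 and highest on wild type 1 (0.042).

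Of 15 genes of the glucocorticoid response, 9 were higher and 6 lower, with 0 past limma's adjusted threshold and 0 at an unadjusted p under 0.05. Ddit4, which inhibits mTORC1, had the widest range and read 8.43, 10.01 and 9.16 in ICD and 9.14, 8.79 and 9.20 in wild type kidneys, highest on ICD 2. Angptl4 was highest on ICD 1 (10.84, against 9.86 to 10.48) and Fkbp5, a co-chaperone of the glucocorticoid receptor, on ICD 3 (10.89, against 10.00 to 10.55). The glucocorticoid list scored -0.031 on ICD 2, highest on ICD 1 (0.060) and lowest on wild type 1 (-0.077). Of 21 heat shock and hypoxia genes, 7 were higher and 14 lower, with 0 past the adjusted threshold and 1 at an unadjusted p under 0.05. This was Dnajb1, a co-chaperone of HSP70, at 10.32, 10.68 and 10.57 in ICD and 10.13, 10.24 and 10.06 in wild type kidneys. Egln3, a hypoxia-induced prolyl hydroxylase, and Car9, a carbonic anhydrase under the same control, were highest on ICD 2, at 8.57 and 8.93. Hspa1a, an inducible HSP70, was highest on wild type 1, at 9.56. Of the other hypoxia genes in the list, Ldha and Ero1a were highest on ICD 2 as well. Vegfa, Slc2a1, Bnip3 and Adm were highest on wild type 2. Pgk1 and Ndrg1 were highest on ICD 1, and Ankrd37 on the array labelled wild type 3. The score of the whole heat shock and hypoxia list was highest on ICD 2 (0.089), close to wild type 1 (0.082), and lowest on ICD 1 (-0.17).

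**Figure D5:**
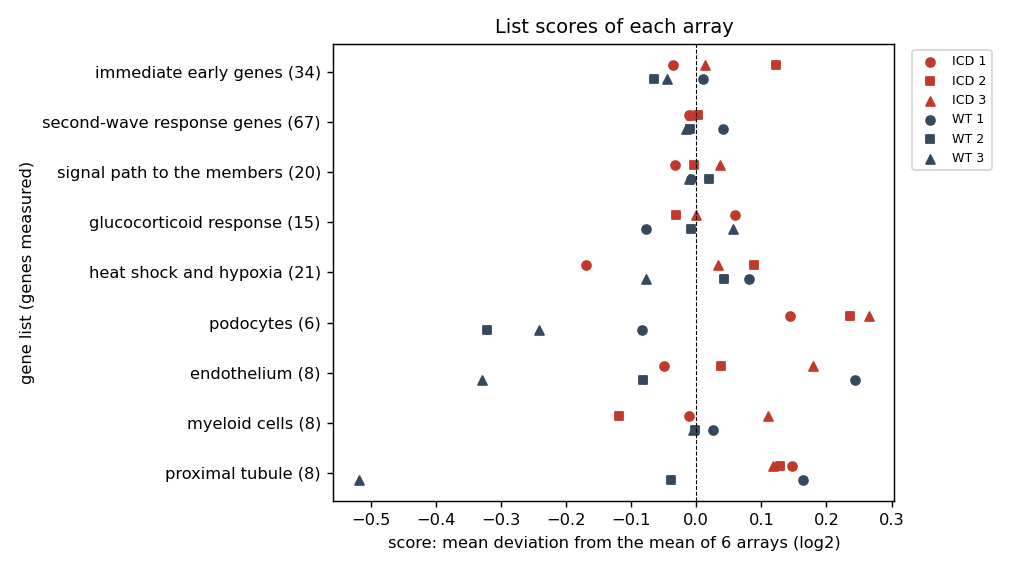
Each point is 1 array's score (mean deviation from the mean of 6 arrays, log2) for the members, 4 related lists and 4 lists of cell type markers, with ICD arrays in red, wild type arrays in dark blue and marker shapes for replicate numbers. For the members, ICD 2 lies at 0.12, to the right of the other 5, and of the lists plotted only podocyte scores part the genotypes.

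The genes most like the member score were taken from 191 others that were at or above the median level and ranged over at least 1 on the 6 arrays, by Pearson correlation over the 6 arrays. They were Ciart (0.89), a repressor of the circadian clock, Dbp (0.86), a clock output factor, Ddit4 (0.86), Rnase4 (0.86), a secreted ribonuclease, Ppara (0.83), the nuclear receptor of fatty acid oxidation, and Slc7a7 (0.82), a basolateral amino acid transporter. All 6 were highest on ICD 2. Dbp read 10.75, 11.63 and 11.28 in ICD and 11.19, 10.51 and 10.07 in wild type kidneys, and Ciart 7.53, 8.43 and 8.02 against 7.86, 7.58 and 7.13. Both were lowest on the array labelled wild type 3. These likenesses rest on 6 arrays that share a normalization, and largely on ICD 2. Nor did all members share the score. The correlation of a member with the score of the other members ran from -0.77 (Nr4a2) to 0.97 (Egr1).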

How the data were processed

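Kidney RNA of 6 mice was measured on 1 array each, and the titles gave each animal's group and replicate number. The deposited log2 values were made by the authors with RMA, per the submitters' processing notes. This method removes background, gives all arrays 1 distribution and summarises probe sets by median polish, so a shift shared by most transcripts would be removed. Its version, the chip definition and filters are not given in the sources used here.

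The 64 control rows were left out of 45101. Of the 45037 probe sets, 34945 carried 1 gene symbol, 932 several and 9160 none. Symbols were checked by Entrez identifier in the RefSeq table of GRCm38.p6, and 0 were updated. The test of genotype, the sole term, was that of limma 3.58.1 under R 4.3.3 (2-sided), p-values were adjusted by Benjamini-Hochberg over all 45037, and 0.05 was the threshold. The fit was tested on simulated data. An exact permutation test of 3 against 3 cannot reach 0.05, and was not used. The number of arrays limits the precision: the median interval of a member reached 0.22 to either side.

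Members and lists were chosen with earlier results of these data known, so lists are described by counts and medians, without a test. Named genes were all members, with single values for the 12 of widest range and for those with an unadjusted p under 0.05 or without overlap; of the related lists, genes with such a p and the 3 of widest range; and the 6 genes most like the member score. Nr4a1, Nr4a3, Klf4 and Btg2 values, those of single cell type markers, and the highest arrays of further hypoxia genes were added after they were seen. Cell type markers covered podocytes, tubule segments, endothelium, stroma, myeloid and lymphoid cells, blood, urothelium, adipose tissue and adrenal gland. Alternatives were each array left out, the replicate block, quantile normalization, median centring, bright probe sets alone, a mean over each gene's probe sets, a trended and robust prior, and array weights.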

Additional observations from a re-analysis of the deposited data

How the results depend on the processing

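In every one of the 13 alternatives 0 members passed limma's adjusted threshold (lowest adjusted p 0.442), and 16 of the 34 kept their sign in each one that measured them. With bright probe sets alone 8 members were not tested (Fos, Fosb, Fosl1, Atf3, Egr2, Myc, Dusp5 and Socs3), so these had 12 alternatives. Without 1 array, differences took both signs for 17 members: Fosl1 (-0.051 to 0.060), Fosl2 (-0.037 to 0.071), Atf3 (-0.010 to 0.050), Egr3 (-0.067 to 0.074), Nr4a1 (-0.16 to 0.082), Nr4a2 (-0.11 to 0.016), Nr4a3 (-0.025 to 0.046), Klf6 (-0.13 to 0.027), Klf10 (-0.040 to 0.51), Cebpd (-0.19 to 0.10), Dusp5 (-0.036 to 0.083), Socs3 (-0.12 to 0.071), Zfp36 (-0.26 to 0.19), Btg1 (-0.061 to 0.15), Gadd45b (-0.00022 to 0.14), Gadd45g (-0.33 to 0.41) and Ier2 (-0.036 to 0.081). The sign also turned for Fosl2 and Nr4a3 after quantile normalization (-0.0072 and -0.0072) and median centring (-0.00027 and -0.00051), for Nr4a3 and Zfp36 with array weights (-0.0012 and -0.083), and with a mean over each gene's probe sets for Fosl1 (-0.011), Jund (-0.026), Egr3 (-0.045), Nr4a2 (0.011) and Gadd45b (-0.012). With that mean, 2 members had an unadjusted p under 0.05 and 2 did not overlap. Without 1 array these counts were 1 to 5 (ICD 3 left out gave 1, and the array labelled wild type 3 left out gave 2) and 2 to 8 (with 3 against 2 animals, groups part more often by construction). Unadjusted counts without 1 array were 3 to 7 for the second wave, 0 to 2 for glucocorticoid genes and 1 to 3 for heat shock and hypoxia. Heat shock and hypoxia gave 2 after quantile normalization and with array weights, and glucocorticoid genes 1 with array weights. The shares of all genes were not counted in these alternatives, so these counts have no background beside them. Those of the main fit do not apply to them. The causes were not tested.

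The replicate numbers did not pair the animals (correlations of same-numbered deviations -0.0057, 0.0077 and -0.047). With the replicate block, 6 members, 5 second-wave genes, 1 glucocorticoid gene and 3 heat shock and hypoxia genes had an unadjusted p under 0.05, and 0 members passed the adjusted threshold. The share of all genes with such a p was not counted there either. The alternatives for counts without overlap and for the lists other than the second wave, and the gap sizes and level bins, were chosen after seeing the data.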
